A study of Mus musculus with 12 samples.

Results

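The 6 genes described here, *Wfs1*, *Fibcd1*, *Pou3f1*, *Mpped1*, *Man1a* and *Gpr161*, are transcripts used as markers of the pyramidal neurons of hippocampal field CA1. They were found by symbol, through the name that GENCODE M21 gives to each Ensembl identifier of the deposited expression table. All 6 were found among the 26409 genes of the table. All 6 were also among the 18197 genes tested, those whose TPM averaged 0.1 or more over 12 libraries. The unit TPM corrects for the length of a transcript, which allows the levels of different genes to be set side by side.

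CA1 pyramidal neurons receive the Schaffer collaterals of CA3 and the direct input of the entorhinal cortex, and they send the main output of the hippocampus proper to the subiculum and back to the cortex. The field is needed for spatial and contextual memory and is among the brain regions most easily damaged by loss of oxygen. Its neurons share most of their transcripts with the other glutamatergic neurons of the hippocampus and differ from CA3 neurons and dentate granule cells by a limited set of genes.

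Hippocampal RNA came from 12 mice of 6 to 12 months, 6 WT and 6 *Dek* cKO, with 3 females and 3 males of either genotype. The mice had gone through behaviour tests before the tissue was taken. The cKO line carries a germline deletion of *Dek*, obtained from an allele whose exons 3 and 4 are flanked by loxP and a CMV-Cre line on the C57Bl/6 background, and Cre was afterwards bred out. The deletion is therefore present in every cell of the mouse and is not restricted to CA1 or to neurons. Only the 3 female WT libraries have a name that starts with C57, and the other 9 start with CMV, so that the prefix and the group cannot be told apart in comparisons with female WT mice. The 3 WT libraries with a CMV name are all labelled male, so comparisons among the CMV-named libraries also mix genotype with sex. Each library had between 18104 and 18719 genes above 0 TPM. The read depth of each library is not kept in this unit.

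*Dek* transcripts went with the genotype label in each library. They lay between 44.2 and 51.9 TPM in WT and between 5.55 and 9.25 TPM in cKO mice, a log2 fold change of -2.74 (standard error 0.10, limma adjusted p = 1.17e-08, lower in 6 of 6 cKO libraries). The sex labels were checked with the Y-linked gene *Eif2s3y*. It had 72.7 TPM in the library labelled female cKO replicate 3 and 0.111 TPM in the library labelled male cKO replicate 1, each against its label. Both libraries were kept where their labels put them, and results within a sex are given with them and without them.

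Transcripts of the other hippocampal fields were present in each library. CA3 transcripts (5 of 5 listed genes tested) were led by *Bok* with a mean of 51.4 TPM, those of dentate granule cells (7 of 7) by *C1ql2* with 76.9 TPM, and those of CA2 (6 of 6) by *Pcp4* with 243 TPM. The CA2 receptor gene *Avpr1b* was close to absent, between 0.103 and 0.369 TPM. Of the striatal markers, *Drd1* was listed at 0 in female cKO replicate 2 and reached at most 1.74 TPM. Libraries differed in their level of transcripts that mark neighbouring tissue. The 9 markers of cortex and subiculum, led by *Lamp5*, summed to 267 and 219 TPM in female cKO replicates 1 and 2 and to 98.5 TPM in the library labelled female cKO replicate 3. Their sums were 134, 164 and 132 TPM in female WT, 147, 143 and 110 TPM in male cKO and 164, 160 and 161 TPM in male WT libraries. No gene of this list was at 0 in any library. The 6 choroid plexus markers, led by *Ttr*, summed to between 45.8 TPM in female cKO replicate 1 and 4458 TPM in the library labelled male cKO replicate 1. Male cKO replicate 3 stood apart for *Gfap*, with 1267 TPM against 208 to 437 TPM in the other libraries, and for *Npy*, with 529 TPM against 108 to 141 TPM.

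The 6 CA1 transcripts were of medium to high abundance and fell into 3 tiers. *Mpped1* was the most abundant, with a mean of 138 ± 13.9 TPM (SD, n = 12), and ranked 894 among the 26409 genes. *Wfs1* with 54.5 ± 12.5 TPM and *Fibcd1* with 53.3 ± 8.50 TPM followed at nearly the same level. *Pou3f1* (24.8 ± 3.73 TPM), *Man1a* (24.0 ± 3.02 TPM) and *Gpr161* (20.4 ± 2.09 TPM) formed the lowest tier. The tiers did not overlap. The lowest *Mpped1* value, 107 TPM, was above the highest *Wfs1* value of 71.2 TPM, and the lowest *Wfs1* value, 36.5 TPM, was above the highest *Pou3f1* value of 29.0 TPM. Within a tier the order was not fixed. *Wfs1* was above *Fibcd1* in 7 of 12 libraries, and *Pou3f1* was above *Man1a* in 7 of 12. *Gpr161* was below *Man1a* in 11 of 12 libraries. *Wfs1* was the most variable of the 6, with a coefficient of variation of 23.0%, and *Mpped1* (10.1%) and *Gpr161* (10.2%) the least.

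**Figure D1:**
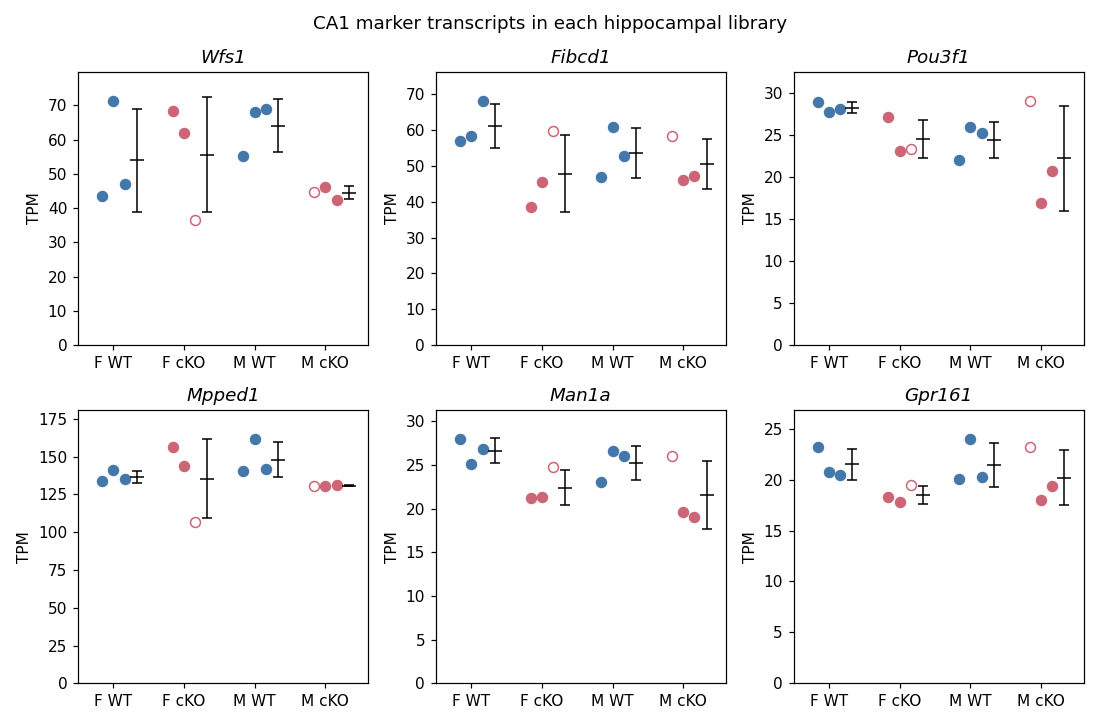
TPM of the 6 CA1 marker genes in each of 12 hippocampal libraries, by group (F, female; M, male; WT in blue, *Dek* cKO in red). Points are libraries, open points are the 2 libraries whose Y-linked genes go against the sex label, and black bars are the mean ± SD of 3 libraries. *Mpped1* stays above 106 TPM in each library and the other 5 genes stay below 72 TPM, and for none of the 6 genes do all cKO points lie below all WT points.

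Across both sexes, none of the 6 genes differed between *Dek* cKO and WT mice at the thresholds used, an adjusted p below 0.05 and a change of more than 1.2-fold, which 0.148% of all genes tested passed (27 of 18197). All 6 fitted differences were below 0. The median log2 fold change of the 6 was -0.21, beside 0.02 over all genes tested, of which 44.2% were below 0. At an unadjusted p under 0.05 in limma, 1 of the 6, *Man1a*, was lower, beside 1.8% of all genes. With the libraries of conflicting sex left out, 4 of the 6 were lower at that level, *Man1a*, *Fibcd1*, *Gpr161* and *Pou3f1*, beside 2.4% of all genes, and 0 passed after adjustment. The median of the 6 was then -0.25. Both libraries left out were cKO, and for each of these 4 genes the highest cKO value was in 1 of them. Among the 4, *Man1a* varied with each of the others across libraries (r = 0.80, 0.79 and 0.77), so they are not independent. In none of the 6 were all 6 cKO values below all 6 WT values, a pattern found in 0.104% of all genes (19 of 18197). Summed over the 6 genes, WT libraries held 332 ± 21.6 TPM and cKO libraries 297 ± 24.3 TPM (SD, n = 6 each). The difference between these sums was not tested. In RNA of dissected hippocampus, fewer CA1 neurons, less transcript in each neuron and a different share of neighbouring tissue cannot be told apart.

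*Wfs1* encodes wolframin, a membrane protein of the endoplasmic reticulum that takes part in calcium handling and the response to unfolded proteins, and is among the most widely used CA1 labels. The gene (ENSMUSG00000039474) lies on the minus strand of chromosome 5 of GRCm38, from 36966104 to 36989205, with 8 exons in its longest coding transcript. It had 43.5, 71.2 and 47.1 TPM in female WT and 68.3, 61.9 and 36.5 TPM in female cKO libraries. In males the values were 55.3, 68.1 and 68.9 TPM in WT and 44.7, 46.3 and 42.4 TPM in cKO libraries. The female groups overlapped across nearly their whole range, while each male cKO value was below each male WT value, as in 3.84% of all genes tested. The both-sex log2 fold change was -0.25 (95% interval -0.60 to 0.11, limma adjusted p = 0.864), with 4 of 6 cKO libraries below the WT median. An exact permutation test of the 6 against 6 TPM values gave p = 0.219, where the smallest p this design allows is 0.00216. Among the 9 CMV-named libraries (6 cKO, 3 WT) the difference was -0.38 (-0.79 to 0.02), and without the libraries of conflicting sex it was -0.11 (-0.49 to 0.27).

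The difference in *Wfs1* was 0.03 in females (-0.47 to 0.52) and -0.52 in males (-1.02 to -0.02), and their difference, the interaction, was -0.55 (-1.25 to 0.16, limma adjusted p = 0.966). Without the libraries of conflicting sex it was 0.30 in females (-0.13 to 0.73) and -0.52 in males (-0.95 to -0.10), with an interaction of -0.83 (-1.44 to -0.22). That interaction had a limma adjusted p of 0.428, the lowest of its alternatives, which ran up to 1. The female value was set by single libraries. Dropping female cKO replicate 1 gave -0.15, and dropping the library labelled female cKO replicate 3 gave 0.30. These are the libraries with the highest and the lowest sums of cortex and subiculum markers. The fitted differences of these markers were above 0 for 7 of 9 in females (median 0.16) and below 0 for 9 of 9 in males (median -0.23). Without the libraries of conflicting sex they were above 0 for 8 of 9 in females (median 0.79) and below 0 for 8 of 9 in males (median -0.33), with 0 passing in either setting. Their part in the *Wfs1* difference was not tested.

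Of 11 genes of the endoplasmic reticulum stress response, *Wfs1* included, 0 passed in either direction in limma (0 at an unadjusted p under 0.05), and their median log2 fold change was -0.03. *Calr*, the calcium-binding chaperone calreticulin, was the most abundant with a mean of 276 TPM. *Cisd2*, whose loss causes the second form of Wolfram syndrome in humans, lay between 28.7 and 35.6 TPM in all libraries, a much narrower range than *Wfs1*.

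*Mpped1* encodes a metallophosphoesterase domain protein that is enriched in forebrain neurons. The gene (ENSMUSG00000041708) lies on the plus strand of chromosome 15 of GRCm38, from 83779467 to 83858494, with 7 exons in its longest coding transcript. Female WT libraries had 134, 141 and 135 TPM and female cKO libraries 156, 144 and 107 TPM. Male WT libraries had 141, 161 and 142 TPM and male cKO libraries 130, 131 and 131 TPM. As for *Wfs1*, the females overlapped and the 3 male cKO values lay below the 3 male WT values, a pattern of 3.84% of all genes tested. The male cKO values differed from each other by less than 1 TPM (SD 0.406). The both-sex log2 fold change was -0.10 (-0.27 to 0.07, limma adjusted p = 0.889, exact permutation p = 0.281), with 4 of 6 cKO libraries below the WT median. It was -0.03 in females and -0.18 in males. Without the libraries of conflicting sex the values were 0.13 (-0.03 to 0.29) and -0.17 (-0.33 to -0.01), and the both-sex difference was -0.02. The both-sex value ran from -0.15 to -0.04 when 1 library was left out. Among the CMV-named libraries it was -0.16 (-0.39 to 0.07). The interaction was -0.15 (-0.50 to 0.21), and -0.31 (-0.53 to -0.08, limma adjusted p = 0.428, with alternatives up to 1) without the libraries of conflicting sex. When 1 library was left out, the interaction ran from -0.31 to -0.03. The part of the cortex and subiculum markers in these values was not tested. The related gene *Mpped2* had 20.1 to 25.9 TPM across libraries and a log2 fold change of -0.04. The median of the 2 genes of the family was -0.07, and 0 of them passed.

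*Fibcd1* encodes a transmembrane receptor with a fibrinogen-like domain that binds acetylated groups and chondroitin sulphate of the extracellular matrix. The gene (ENSMUSG00000026841) lies on the minus strand of chromosome 2 of GRCm38, from 31813290 to 31846005, with 7 exons. It had 56.98, 58.3 and 68.1 TPM in female WT and 38.6, 45.4 and 59.6 TPM in female cKO libraries. In male WT libraries it had 46.9, 60.9 and 52.9 TPM and in male cKO libraries 58.5, 46.0 and 47.1 TPM. The highest value of each cKO group came from the library of conflicting sex. The both-sex log2 fold change was -0.23 (-0.47 to 0.01, limma adjusted p = 0.773, exact permutation p = 0.102), with 4 of 6 cKO libraries below the WT median. It was -0.13 (-0.44 to 0.18) among the CMV-named libraries and -0.37 (-0.58 to -0.16) without the libraries of conflicting sex. In females the difference was -0.37 (-0.72 to -0.03) and in males -0.09 (-0.43 to 0.26), with an interaction of 0.29 (-0.20 to 0.77). Without the libraries of conflicting sex it was -0.54 (-0.82 to -0.27) in females and -0.19 (-0.47 to 0.08) in males, and neither passed. The female value then had a limma adjusted p of 0.182, the lowest of its alternatives, which ran up to 1. When 1 library was left out, the female value ran from -0.54 to -0.23 and the interaction from 0.14 to 0.46. The fitted differences of the CA3 markers were below 0 for 5 of 5 in females (median -0.27) and above 0 for 4 of 5 in males (median 0.19). Left without the libraries of conflicting sex, the medians were -0.34 and 0.06, and 0 passed in either setting. Their part in the *Fibcd1* difference was not tested.

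*Man1a* encodes a Golgi alpha-mannosidase of class I, which trims mannose from N-linked glycans so that complex glycans can be built. The gene (ENSMUSG00000003746) lies on the minus strand of chromosome 10 of GRCm38, from 53904785 to 54076609, with 13 exons in its longest coding transcript, and overlaps noncoding genes of the opposite strand. Female WT libraries had 27.9, 25.1 and 26.8 TPM and female cKO libraries 21.2, 21.3 and 24.8 TPM. Male WT libraries had 23.0, 26.6 and 26.1 TPM and male cKO libraries 26.1, 19.6 and 19.1 TPM. In females the 3 cKO values were below the 3 WT values, as in 4.59% of all genes tested. In males they overlapped through the library labelled male cKO replicate 1. All 6 cKO values were below the WT median of 26.3 TPM.

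The both-sex log2 fold change of *Man1a* was -0.24 (standard error 0.08, 95% interval -0.42 to -0.07), which corresponds to 15.5% less. It had the lowest unadjusted p of the 6 genes (0.0098 in limma) and did not pass after adjustment over all genes (adjusted p = 0.541). The exact permutation test gave p = 0.0173. The differences in females (-0.25, -0.51 to 0.01) and males (-0.24, -0.50 to 0.03) had nearly the same estimate, and the interaction was 0.01 (-0.36 to 0.38). Without the libraries of conflicting sex the both-sex difference was -0.35 (-0.49 to -0.21) with a limma adjusted p of 0.119, the lowest of 23 alternatives, which ran up to 0.997. All 4 cKO libraries were then below all 6 WT libraries, as in 0.489% of all genes. In that setting the difference was -0.32 (-0.51 to -0.13) in females and -0.38 (-0.57 to -0.19) in males. The male value ran from -0.38 to -0.15 when 1 library was left out. Among the CMV-named libraries the difference was -0.20 (-0.45 to 0.04).

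The other enzymes of N-glycan processing had smaller fitted differences, 5 of 7 of them below 0. Of 8 listed genes, *Man1a* included, 0 passed in either direction in limma, 1 was lower (*Man1a*) and 1 higher (*Man1c1*) at an unadjusted p under 0.05, the latter beside 4.84% of all genes, and the median log2 fold change was -0.06. The closest relative *Man1a2* had 27.8 to 32.7 TPM and a log2 fold change of 0.04, and *Man1c1*, a further Golgi mannosidase, 0.19. *Man1b1*, which acts in the quality control of glycoproteins, was the most abundant with a mean of 53.7 TPM.

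*Pou3f1*, also known as Oct6 or SCIP, encodes a POU domain transcription factor of CA1 and of some cortical neurons that is also known from myelinating Schwann cells. The gene (ENSMUSG00000090125) lies on the plus strand of chromosome 4 of GRCm38, from 124656807 to 124660655, consists of 1 exon and overlaps an antisense gene. Female WT libraries had 28.9, 27.7 and 28.0 TPM and female cKO libraries 27.1, 23.1 and 23.3 TPM. Male WT libraries had 22.0, 25.9 and 25.2 TPM and male cKO libraries 29.0, 16.9 and 20.7 TPM. The highest and the lowest of all 12 values were thus both male cKO libraries. The female cKO values were below the female WT values, again a pattern of 4.59% of all genes, with a log2 fold change of -0.21 (-0.56 to 0.14), or -0.17 (-0.43 to 0.08) without the libraries of conflicting sex. The both-sex value was -0.19 (-0.44 to 0.06, limma adjusted p = 0.852, exact permutation p = 0.186), with 4 of 6 cKO libraries below the WT median, and -0.08 (-0.42 to 0.26) among the CMV-named libraries. It was -0.10 without male cKO replicate 2, the nearest to 0 when 1 library was left out, and -0.28 (-0.54 to -0.01) without the libraries of conflicting sex. In males it was -0.17 (-0.51 to 0.18), and -0.38 (-0.63 to -0.12) without the libraries of conflicting sex. The paralog *Pou3f3* had 18.7 to 26.8 TPM and *Pou3f4* 2.78 to 3.74 TPM, and of the 3 genes of this class in the table, *Pou3f1* included, 0 passed, with a median log2 fold change of -0.08.

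*Gpr161* encodes an orphan receptor of the primary cilium that raises cAMP and restrains Hedgehog signalling. The gene (ENSMUSG00000040836) lies on the plus strand of chromosome 1 of GRCm38, from 165295789 to 165326745, with 6 exons. Female WT libraries had 23.2, 20.8 and 20.5 TPM and female cKO libraries 18.3, 17.8 and 19.5 TPM. Male WT libraries had 20.1, 23.9 and 20.2 TPM and male cKO libraries 23.2, 18.0 and 19.4 TPM. The highest cKO value was that of the library labelled male cKO replicate 1, and 5 of 6 cKO libraries were below the WT median. The both-sex log2 fold change was -0.15 (-0.31 to 0.01, limma adjusted p = 0.780, exact permutation p = 0.0844), and it was -0.15 (-0.37 to 0.08) among the CMV-named libraries and -0.22 (-0.37 to -0.07) without the libraries of conflicting sex. It was -0.21 in females and -0.09 in males, and -0.25 and -0.19 without the libraries of conflicting sex. The male value ran from -0.19 to -0.006 when 1 library was left out. Of 8 Hedgehog genes, *Gpr161* included, 0 passed in limma, 0 reached an unadjusted p under 0.05, and the median was -0.01. The most abundant was *Tulp3*, which carries receptors into the cilium, with a mean of 23.2 TPM, and *Gli1*, a transcriptional target of the pathway, had the largest difference, 0.18, at 0.859 to 2.24 TPM, and ran from 0.07 to 0.32 when 1 library was left out.

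Within a sex, 0 of the 6 genes passed in females and 0 in males, beside 0.0165% of all genes tested in each (3 of 18197), and 0 passed in the interaction, where 0% of all genes did. With the libraries of conflicting sex left out, 0 of the 6 passed in each of these comparisons, beside 0.0604% of all genes in females, 0.0385% in males, 0.011% in the interaction and 0.0879% across both sexes. For the WT sexes the fit called none of the 6, beside 0% of all genes, and the largest log2 fold change was 0.28 for *Wfs1* (-0.22 to 0.77). This value ran from 0.14 to 0.49 when 1 library was left out. That fit did not call the Y-linked gene *Eif2s3y* either, at a log2 fold change of 7.41, since its estimate of spread is shared with the cKO groups that hold the libraries of conflicting sex. Without them 0.022% of all genes passed, which are 4 Y-linked genes, and again 0 of the 6. In the CMV-named libraries 0 of the 6 passed, beside 0.0442% of all genes. With 3 libraries in a group, an exact permutation test cannot give a p below 0.1. The intervals show what these groups leave possible. Across both sexes the 95% interval for *Wfs1* ran from 34.2% less to 7.92% more, for *Mpped1* from 17.2% less to 4.68% more and for *Gpr161* from 19.3% less to 0.592% more.

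**Figure D2:**
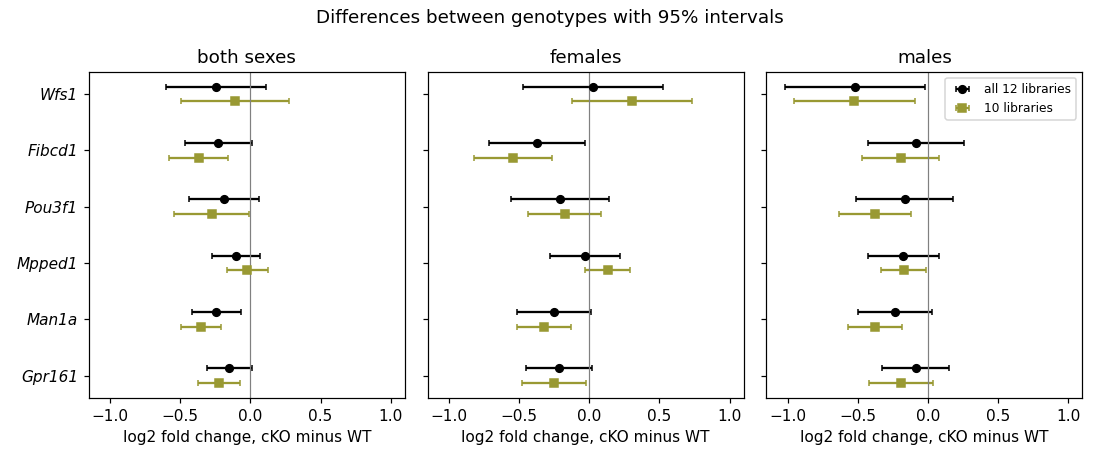
Log2 fold change of *Dek* cKO minus WT for the 6 CA1 marker genes across both sexes, in females and in males, with 95% intervals from limma. Black circles use all 12 libraries and olive squares the 10 libraries left without the ones of conflicting sex. The both-sex values lie between -0.25 and -0.10 with all libraries, and within a sex *Wfs1* lies at 0.03 in females and -0.52 in males.

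The 6 genes did not vary as a single unit across libraries. Of 15 pairs, 5 had a Pearson correlation of log2(TPM + 0.1) with a Benjamini-Hochberg adjusted permutation p under 0.05, and they formed separate groups. *Wfs1* and *Mpped1* had r = 0.84 over 12 libraries (permutation p = 8e-05, adjusted 0.0012) and rho = 0.83 (permutation p = 0.00165, adjusted 0.0124). It was 0.88 without the libraries farthest from the *Wfs1* median, 0.91 in the 9 CMV-named libraries and 0.82 after centring within the 4 groups. *Fibcd1* and *Man1a* had r = 0.80 (permutation p = 0.00186, adjusted 0.0117) and rho = 0.72 (permutation p = 0.0105, adjusted 0.0291). Their r was 0.84 without female WT replicate 3 and female cKO replicate 1, 0.77 in the CMV-named libraries and 0.77 after centring. For *Man1a* and *Gpr161* r was 0.79 (permutation p = 0.00313, adjusted 0.0117) and rho 0.84 (permutation p = 0.00123, adjusted 0.0124). Here r was 0.83 without male cKO replicates 2 and 3, 0.77 in the CMV-named libraries and 0.82 after centring.

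*Pou3f1* varied with *Man1a*. Their r was 0.77 (permutation p = 0.00267, adjusted 0.0117) and rho 0.75 (permutation p = 0.00701, adjusted 0.0265), and r dropped to 0.55 without male cKO replicates 2 and 3, was 0.69 in the CMV-named libraries and 0.71 after centring. *Pou3f1* and *Gpr161* had r = 0.63 (permutation p = 0.0282, adjusted 0.0704) and rho = 0.71 (permutation p = 0.0116, adjusted 0.0291), with 0.54, 0.57 and 0.76. *Fibcd1* and *Gpr161* had r = 0.68 (permutation p = 0.0153, adjusted 0.0458) and rho = 0.75 (permutation p = 0.00706, adjusted 0.0265). Their r was 0.77 without female WT replicate 3 and female cKO replicate 1, 0.77 in the CMV-named libraries and 0.57 after centring. Between the groups there was no such relation. *Wfs1* and *Fibcd1* had r = -0.25 (permutation p = 0.427, adjusted 0.636) and rho = -0.20 (permutation p = 0.542, adjusted 0.886). Their r was -0.28 without female WT replicate 2 and female cKO replicate 3, -0.30 in the CMV-named libraries and -0.48 after centring. *Mpped1* and *Man1a* had r below 0.01 (permutation p = 0.993).

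*Wfs1* and *Mpped1* parted from *Fibcd1* and *Man1a* most in 2 female cKO libraries. In female cKO replicate 1, *Wfs1* was 0.36 and *Mpped1* 0.19 above their means on the log2 scale while *Fibcd1* was -0.45 and *Man1a* -0.17 relative to theirs. In the library labelled female cKO replicate 3, *Wfs1* stood at -0.54 and *Mpped1* at -0.36 while *Fibcd1* stood at 0.18 and *Man1a* at 0.06. *Pou3f1* did not follow *Fibcd1* there, at 0.14 and -0.07, and *Gpr161* stood at -0.15 and -0.06. The same libraries had the highest and the lowest level of cortex and subiculum markers. Male cKO replicates 2 and 3 were the libraries in which all 6 genes were below their means, and female WT replicate 2 and male WT replicate 2 those in which none was.

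**Figure D3:**
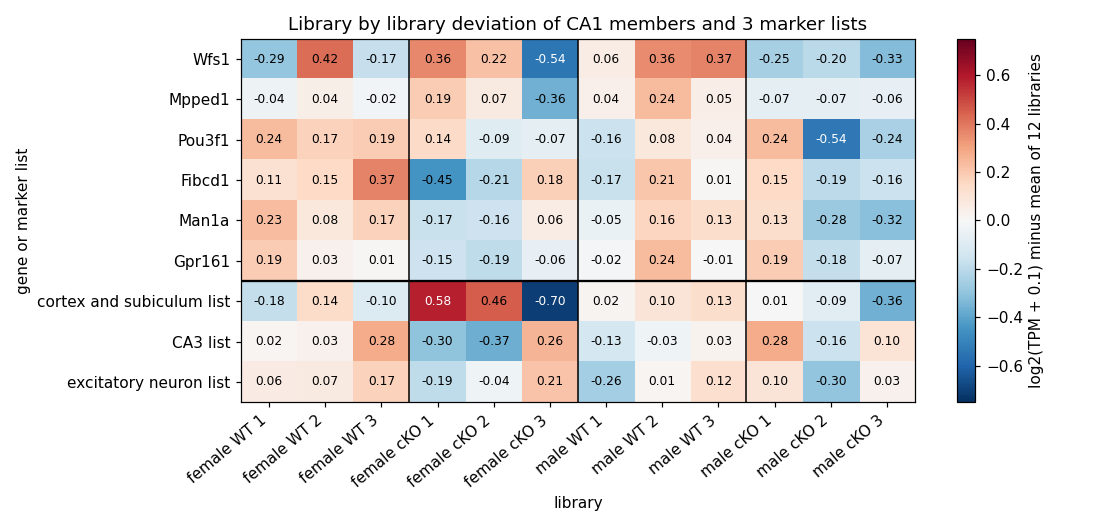
Deviation of the 6 CA1 marker genes (upper part) and of marker lists (lower part, mean over the list) from their mean over 12 libraries, in log2(TPM + 0.1), with libraries in columns ordered by group. The cortex and subiculum list runs from 0.58 in female cKO 1 to -0.70 in female cKO 3, libraries in which *Wfs1* and *Mpped1* have the same sign as the list and *Fibcd1* and *Man1a* the other.

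The mean deviation of each marker list was then set against each of the 6 genes, in 102 relations chosen after the values had been seen. *Wfs1* and the cortex and subiculum list had r = 0.83 (permutation p = 0.00021, adjusted 0.0214) and rho = 0.90 (permutation p = 0.00014, adjusted 0.0143). It was 0.75 without female cKO replicates 1 and 3, 0.85 in the CMV-named libraries and 0.87 after centring within groups. *Mpped1* and the same list had r = 0.84 (permutation p = 0.00143, adjusted 0.0677) and rho = 0.81 (permutation p = 0.0022, adjusted 0.112), with 0.55, 0.84 and 0.90, so that it rests in part on these libraries. *Fibcd1* was nearest to the CA3 list, at r = 0.80 (permutation p = 0.00199, adjusted 0.0677) and rho = 0.79 (permutation p = 0.00336, adjusted 0.114). This r was 0.68 without female cKO replicates 1 and 2, 0.77 in the CMV-named libraries and 0.84 after centring. The CA3 markers summed to 108, 103 and 160 TPM in female cKO, 129, 129 and 157 TPM in female WT, 148, 113 and 157 TPM in male cKO and 115, 125 and 125 TPM in male WT libraries, with no gene at 0. Only the relation of *Wfs1* to the cortex and subiculum list passed after adjustment among the 102. What the shared variation owes to the tissue taken in a dissection was not tested.

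Other transcripts of CA1 had a like median and the same absence of calls. Of 5 further CA1 genes 0 passed in limma, 2 were lower at an unadjusted p under 0.05, beside 1.8% of all genes. The median log2 fold change was -0.28. *Crym*, which binds thyroid hormone, was the most abundant, with a log2 fold change of -0.34 (limma adjusted p = 0.528). It had 254, 273 and 297 TPM in female WT and 173, 203 and 256 TPM in female cKO libraries, and 247, 319 and 264 TPM in male WT and 231, 276 and 185 TPM in male cKO libraries. *Ccn3*, a secreted matricellular protein, had the largest difference, -0.36 (limma adjusted p = 0.839), with its lowest value of 44.6 TPM in male cKO replicate 3, without which the difference was -0.19.

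The other fields and cell types had 0 genes passing in limma as well. At an unadjusted p under 0.05, 1.8% of all genes were lower and 4.84% higher. The median log2 fold change was -0.07 for CA3 genes (0 of 5 lower at an unadjusted p under 0.05), 0.06 for CA2 genes (1 of 6 lower, *Amigo2*, which had the largest difference at -0.35) and -0.08 for dentate granule cell genes (0 of 7 lower and 1 higher, *Pdyn*, at 0.33). *C1ql2*, the most abundant dentate gene, also had the largest difference of its list, 0.34. *Npy2r*, the CA3 gene with the largest difference, stood at -0.31, and its lowest value, 13.7 TPM, was in male cKO replicate 3, without which it stood at -0.15. For 6 genes of excitatory neurons, led by *Camk2a* with a mean of 1488 TPM, the median was -0.05, and *Grin2a*, with the largest difference at -0.45, was listed at 0 to 0.247 TPM and gives no level. It was -0.02 for 6 genes of all neurons, led by *Snap25* with 1742 TPM, where *Syt1* had the largest difference at -0.09. Interneuron genes had a median of 0.07 over 7 genes, were led by *Sst* with 433 TPM and had their largest difference in *Npy*, 0.42, which was highest in male cKO replicate 3 and had 0.07 without it. Leaving out the libraries of conflicting sex moved the medians to -0.17 for CA3, -0.22 for dentate granule cells, -0.03 for CA2 and -0.11 for excitatory neurons, beside -0.25 for the 6 CA1 genes.

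Markers from outside the neurons of the hippocampus had medians between -0.13 and 0.15, and 0 passed. Medians were -0.03 for cortex and subiculum (*Fn1* largest at -0.30, and a median of 0.10 with 7 of 9 above 0 without the libraries of conflicting sex), 0.06 for thalamus and habenula and 0.09 for striatum. All 8 genes of the thalamic list had fitted differences above 0. Without the libraries of conflicting sex 5 of 8 were above 0 and 3 below (median 0.117), with medians of 0.365 in females and -0.228 in males. The list was led by *Calb2* (47.6 TPM) and had its largest difference in *Gpr151* of the habenula, 0.83 (limma adjusted p = 0.247), which stayed at or below 2.00 TPM. *Gpr151* was higher at an unadjusted p under 0.05 (0.0013 in limma), beside 4.84% of all genes. The striatal list was led by *Ppp1r1b* (58.7 TPM) and had its largest difference in *Drd1*, -0.76 (-1.28 to -0.41 when 1 library was left out), a gene near 0. For glia the medians were 0.06 for astrocytes, -0.13 for oligodendrocytes and 0.07 for microglia. *Gfap* led the astrocyte list and had 0.50, or 0.13 without male cKO replicate 3. *Mbp* (2182 TPM) led the oligodendrocyte list, whose largest difference was 0.76 for *Mag*, a value that turned to -0.40 without male WT replicate 2. *C1qa* (80.8 TPM) led the microglial list and was higher at an unadjusted p under 0.05 (0.19), and the list's largest difference was -0.40 for *P2ry12*, or -0.18 without male cKO replicate 3. The median was -0.03 for endothelium, where *Cldn5* was both most abundant (42.9 TPM) and most different (-0.13). It was 0.15 for choroid plexus, with *Ttr* most abundant (1433 TPM) and *Otx2* most different (-0.55, or 0.36 without female cKO replicate 1), and -0.08 for meninges, where *Dcn* (60.6 TPM, -0.45, or -0.21 without female cKO replicate 1) was both. Immediate early genes had a median of -0.07, with *Arc* most abundant (60.5 TPM) and *Npas4* most different (-0.32, or -0.12 without female WT replicate 2). Some of these medians join opposite signs in females and males. They were -0.50 and 0.34 for meninges and -0.47 and 0.34 for immediate early genes, and without the libraries of conflicting sex -0.53 and 0.17, and -0.20 and 0.14. For the choroid plexus list the medians were 0.31 and -0.12, and without those libraries 0.17 and -1.07. Its both-sex median then turned to -0.51, with 6 of 6 genes below 0, and that of oligodendrocytes was -0.24.

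Genes most like the members were searched among 14154 other genes averaging 1 TPM or more, by Pearson's r over 12 libraries with the mean of the 6 standardised members. Among the nearest were *Cpne8* (r = 0.91), *Rasgrf1* (0.88), *Trim17* (0.87), *Itpka* (0.87), *Kit* (0.86), *Armcx3* (0.86), *Slc1a1* (0.85), *Foxp1* (0.85) and *Zbtb16* (0.85). *Itpka* encodes a kinase of inositol trisphosphate in dendritic spines and *Slc1a1* a neuronal glutamate transporter. Single members had different nearest genes. For *Wfs1* they were *Dnajc27* (0.92), *Mab21l1* (0.91) and *Tmem192* (0.90), and for *Mpped1* *Hbq1a* (0.94), *Pnpla8* (0.92) and *Hnrnpu* (0.92). For *Fibcd1* they were *Slc24a3* (0.95), a sodium, potassium and calcium exchanger, *Cpne6* (0.95), a calcium-binding copine of the hippocampus, and *Kcng2* (0.91), a subunit of voltage-gated potassium channels. For *Man1a* they were *Nuak2* (0.93), *Atp2b1* (0.92) and *Kcnd2* (0.91), for *Pou3f1* *Ccdc88c* (0.91), *Ephb3* (0.91) and *Fry* (0.90), and for *Gpr161* *Specc1l* (0.90), *Reps2* (0.86) and *Lefty1* (0.84). Seen from *Wfs1*, *Mpped1* ranked 28 of 14159 genes and *Fibcd1* 11216. Seen from *Gpr161*, *Man1a* ranked 13.

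The start regions of members that varied together were set side by side. RefSeq (GRCm38.p6) held windows of 250 bases before to 50 bases after the start for 5 of the 6 genes, *Pou3f1* being the other. GC boxes (GGGCGG, either strand), which 35.6% of 32817 windows hold, occurred 4 times in the window of *Wfs1*, 9 times in the first window of *Mpped1* and 2 times each in those of *Fibcd1* and *Man1a*, and not in that of *Gpr161*. The CCAAT box (37.4% of windows) occurred once each in *Wfs1*, *Man1a* and *Gpr161*. The full cAMP response element TGACGTCA (1.79%), the octamer ATGCAAAT of POU factors (1.74%) and the TATA box TATAAA (13.6%) were in none of the windows of the 5 genes. *Fibcd1*, *Man1a* and *Gpr161*, which varied together, had 74.3%, 72.7% and 44.0% of G or C in their first windows, beside a median of 52.7% over all windows, and the first window of *Mpped1* had 89.3%. The second window of *Mpped1* had 47.3% and no GC box. The stretches before the RefSeq start that no GENCODE exon of the gene covers are printed 5′ to 3′ on the strand of the gene for the group of 3 and for *Mpped1*, with GC and CCAAT boxes of either strand in capitals. They lie at chr2:31846006-31846255 (minus), chr10:54075797-54075987 (minus), chr1:165295516-165295765 (plus) and chr15:83779773-83779981 (plus). For *Man1a* and *Mpped1* GENCODE M21 also has transcripts that begin farther upstream, so that these stretches lie inside the gene as annotated there.
Fibcd1: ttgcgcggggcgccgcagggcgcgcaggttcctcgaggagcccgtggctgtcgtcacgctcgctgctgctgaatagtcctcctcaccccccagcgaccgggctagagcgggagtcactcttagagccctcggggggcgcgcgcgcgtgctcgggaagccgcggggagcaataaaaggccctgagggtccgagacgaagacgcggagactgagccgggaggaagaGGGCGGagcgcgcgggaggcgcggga
Man1a: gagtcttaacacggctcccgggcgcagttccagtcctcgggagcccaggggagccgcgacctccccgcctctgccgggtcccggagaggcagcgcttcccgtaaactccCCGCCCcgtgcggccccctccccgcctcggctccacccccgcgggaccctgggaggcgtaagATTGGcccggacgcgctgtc
Gpr161: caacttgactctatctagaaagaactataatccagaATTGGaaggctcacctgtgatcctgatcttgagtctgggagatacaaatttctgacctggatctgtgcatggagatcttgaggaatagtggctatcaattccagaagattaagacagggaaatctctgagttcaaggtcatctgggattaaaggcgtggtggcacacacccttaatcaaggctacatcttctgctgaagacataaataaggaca
Mpped1: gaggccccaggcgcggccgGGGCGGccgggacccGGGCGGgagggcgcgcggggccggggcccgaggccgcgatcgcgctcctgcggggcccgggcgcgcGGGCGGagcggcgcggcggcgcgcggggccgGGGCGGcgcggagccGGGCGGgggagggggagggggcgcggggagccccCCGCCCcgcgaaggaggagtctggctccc
A match describes the letters only.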

How the data were processed

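The authors deposited TPM values for 26409 genes in 12 hippocampal libraries. The methods of the study name STAR alignment to GRCm38 and Salmon, and the submitters' processing notes name kallisto and mm10; which of them wrote the table is not given in the sources used here. Since TPM are not counts, the count-based test of the study was replaced by limma (version 3.58.1, R 4.3.3; trended prior variance, two-sided) on log2(TPM + 0.1). Both-sex differences used 2 groups of 6 libraries, and all other contrasts 1 fit of 4 groups. Adjustment was by Benjamini-Hochberg over the 18197 genes tested, and a gene passed below 0.05 with a change of more than 1.2-fold. Fold changes are on the log2(TPM + 0.1) scale. Limma p-values set a difference between groups against the spread between these mice. Gene IDs were matched to GENCODE M21 (25245 of 26409, 1164 without a match). Start regions came from RefSeq for GRCm38.p6.

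Named genes are the 6 members, *Dek*, from each marker or companion list the most abundant gene, the gene with the largest difference and any gene that passed, the 10 genes most like the mean of the members and the 3 most like each. Others were named after their values were seen. A few values for single genes are not reported here. The members and lists were chosen with earlier results of these data known. Correlations used 100000 permutations. Alternatives were another added value (0.5 or 1 TPM), filter, scaling or prior variance, a replicate block, sex as covariate, the CMV-named libraries alone, and libraries left out. The fits were tested on simulated data. Python 3.11.15 with pandas 2.3.3, numpy 2.4.6, scipy 1.17.1 and matplotlib 3.10.9 made the tables and figures.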

Additional observations from a re-analysis of the deposited data

Results flagged for a closer look

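Single libraries stood apart from the 6 of their genotype for *Mpped1* and *Gpr161*. Male WT replicate 2 had 161 TPM of *Mpped1*, the highest of the WT libraries, and its gap to the next was 0.696 of the WT range. The oligodendrocyte markers of this library summed to 2348 TPM. Their sums were 4263 to 4866 TPM in the other WT libraries and 2678 to 4391 TPM in cKO libraries. The library labelled male cKO replicate 1, whose Y-linked genes go against its label, had 23.2 TPM of *Gpr161*, with a gap of 0.689 of the cKO range. Both gaps exceed the critical value of Dixon's test, a limit that chance alone passes in about 1 of 20 such groups, and each of the 6 genes and *Dek* was examined in both genotypes. The both-sex log2 fold change of *Mpped1* was -0.07 without male WT replicate 2, and that of *Gpr161* was -0.20 without the library labelled male cKO replicate 1.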

How the results depend on the processing

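Across 23 alternatives, 12 of which leave out 1 library, 0 of 636 values of single genes passed, and 22 had the other sign. All 138 both-sex values kept their sign. Their widest range was that of *Wfs1*, from -0.38 to -0.11 in alternatives other than leaving out 1 library and from -0.34 to -0.16 when 1 library was left out. For *Man1a* these ranges were -0.35 to -0.20 and -0.29 to -0.20. Leaving out 1 library gave -0.25 to -0.10 for *Pou3f1*, -0.15 to -0.04 for *Mpped1*, -0.29 to -0.16 for *Fibcd1* and -0.20 to -0.12 for *Gpr161*. The median of the 6 genes stayed between -0.25 and -0.15.

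Reversals were confined to differences within a sex, the interaction and the WT sexes. Without both libraries of conflicting sex, *Mpped1* in females was 0.13, and the interaction was -0.20 for *Pou3f1* and -0.057 for *Man1a*. For *Gpr161* the difference between WT sexes was 0.001 after median ratio rescaling and 0.02 after quantile normalization. The cause was not tested.

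Leaving out 1 library moved *Wfs1* in females from -0.15 to 0.30 and *Mpped1* in females from -0.14 to 0.13. In males the range was -0.19 to 0.012 for *Fibcd1* and -0.38 to 0.013 for *Pou3f1*. The interaction ranged from -0.17 to 0.22 for *Pou3f1* and from -0.13 to 0.094 for *Man1a*, and the difference between WT sexes of *Gpr161* from -0.09 to 0.05. With groups of 3, a single library carries much of each of these values.

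The number of all genes passing in the both-sex comparison rose from 27 to 32 with 0.5 or 1 TPM added and to 36 with a prior variance without trend. It was 17 with no filter, 19 with a mean of at least 1 TPM, 21 with sex as covariate, 22 after quantile normalization, 8 in the CMV-named libraries and 16 without both libraries of conflicting sex, and lay between 13 and 27 when 1 library was left out. Fewer libraries enter the last 3 settings.

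A replicate block, which treats libraries of the same replicate number as paired, left 3 genes passing and 0 of the 6, and the median of the 6 at -0.21. The replicate numbers do not pair libraries: WT and cKO libraries of the same number had r of -0.038, 0.006 and 0.001 in females and 0.039, 0.045 and 0.016 in males. The difference between WT sexes cannot be estimated with this block. Read depth is not kept in TPM, so its effect on these values is not analysed here.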
